A study of Rattus norvegicus with 11 samples.

Results

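The genes described here belong to interferon signalling, inflammation and antigen presentation in the hippocampus of rats fed either a control or a ketogenic diet. They were chosen by name: every probe set whose only gene symbol on the array begins with RT1-, Ifit, Irf, Ccl, Cxcl or Socs, is a numbered Stat, or is one of a short list from B2m and Cd74 to Tnf, Rela and C3. A probe set is the group of short oligonucleotides designed for the same transcript. The rule found 114 probe sets for 86 genes, among 15923 on the array, of which 12789 carry a single symbol. It also takes in Ifitm10 and 3 genes for Irf2-binding proteins, whose names share a beginning with the others. Isg15 and C4a have no probe set of their own here. The array data are 11 total RNA samples of rat hippocampus, 6 from rats on the control diet and 5 from rats on the ketogenic diet, which is high in fat and low in carbohydrate and which the labels describe as protecting against epileptic seizures. The labels give no strain, age, sex, duration of feeding or batch, and do not state that each sample is 1 animal, so the p-values below reflect only how far these samples differ from each other, and that spread may be technical.

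Type I interferons are secreted by cells that sense foreign nucleic acid. Their receptors activate Jak kinases and Stat transcription factors, which with Irf factors switch on antiviral genes and, with them, the genes of the major histocompatibility complex (MHC). MHC class I molecules show peptides from inside the cell and consist of a heavy chain, encoded in the rat by the RT1 genes, and beta-2 microglobulin. MHC class II molecules present peptides taken up from outside and are held in the brain mainly by microglia and macrophages. The NF-kB factors carry the signals of interleukin 1 and tumour necrosis factor to chemokine and adhesion genes, and Socs proteins close the Jak-Stat pathway again.

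Most of these genes differed little between the diets. Of the 114 probe sets, 68 were bright enough to be tested, which required a mean log2 signal over all arrays above 5.16, and they represented 59 genes. At an adjusted p below 0.05 (limma, Benjamini-Hochberg over all 11899 tested probe sets), 12 of the 68 were called, or 17.6%, beside 16.5% of all tested probe sets. The fall was the more frequent direction: 9 of 68 were lower on the ketogenic diet (13.2%, beside 7.86% over all) and 3 were higher (4.41%, beside 8.62% over all). The lower ones were RT1-CE10, RT1-CE12, Ifit1, Ifitm3, Irf7, Stat5a, Socs3, Ccl22 and Rela, and the higher ones were RT1-T24-3, B2m and Irf9. The median log2 fold change, ketogenic minus control, was -0.14 over the 68 and -0.0041 over all tested probe sets, with 67.6% and 50.8% below 0. In 4 of the 68 the arrays of the diets did not overlap (5.88%, beside 6.99% over all), namely RT1-T24-3, Ifitm3, Irf9 and Socs3. For 6 of the 68 the mean of 1 diet lay below the testing level, so they were tested only through the other diet. They were RT1-T24-3, low on the control diet, and RT1-Ba, Ccl22, Ccl5, Cxcl3 and Il1r1, each in 1 probe set, low on the ketogenic diet. All 6 count in the median and the shares given here.

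**Figure D1:**
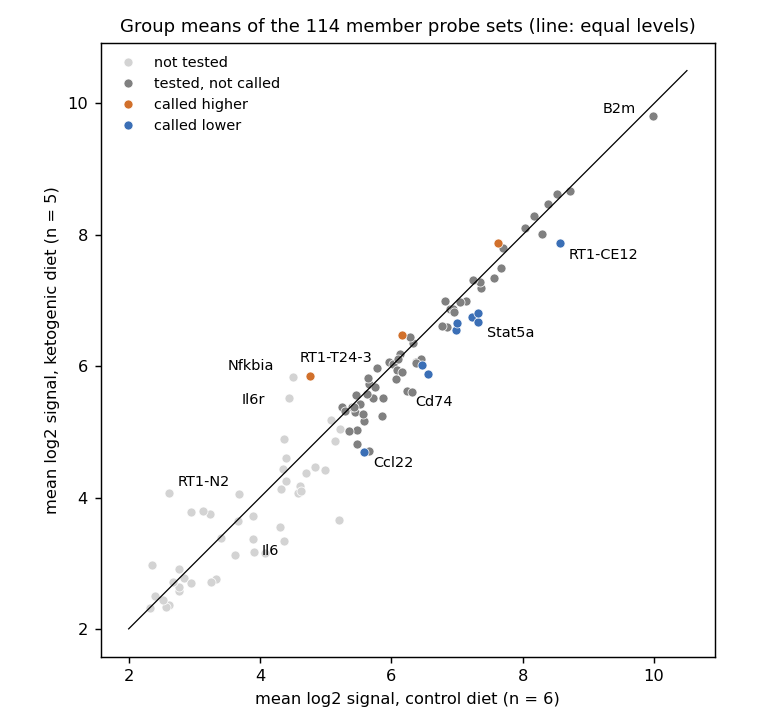
Mean log2 signal of each of the 114 member probe sets on the control diet (horizontal axis, 6 arrays) against the ketogenic diet (vertical axis, 5 arrays). Points on the line have equal means, and most lie close to it. The 9 probe sets called lower lie below the line, the 3 called higher lie above it, and the 46 light points were too dim to be tested.

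The direction of the whole set leaned further to lower values under other scalings of the arrays. On the values as deposited 18 members were called lower and 1 higher, beside 14.6% of all tested probe sets called lower. With each array centred on its 75th percentile 15 were lower and 2 higher, beside 11.5% over all called lower. The median over the members was -0.25 and -0.21 under these scalings, and over all tested probe sets it was -0.06 and -0.03. Of all calls, 52.3% were higher in the quantile scaling, 38.3% with no further scaling and 49.7% when centred.

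Some MHC class I heavy chains differed between the diets. Of 20 probe sets for 12 RT1 class I genes, 11 were tested, 2 were called lower and 1, which was tested only through its ketogenic values, higher. That is 27.3% of the 11, beside 16.5% of all tested probe sets. RT1-CE12, a class I gene of the RT1-C/E region, had signals of 8.36 to 8.76 (median 8.57) on the control arrays. On the ketogenic arrays 1 to 5 it measured 7.77, 7.73, 8.45, 7.46 and 7.97, all on the log2 scale. Ketogenic replicate 3 lay among the controls and the other 4 below them. The mean fell from 8.56 ± 0.16 (SD, n = 6) to 7.88 ± 0.37 (SD, n = 5), a fall of 1.61-fold (log2 fold change -0.69, SE 0.14, adjusted p = 0.00757). It was called in each of the 11 fits that left out 1 array.

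RT1-CE10, another gene of that region, ranged from 6.55 to 7.15 (median 7.10) on control arrays and measured 6.56, 6.47, 6.93, 6.30 and 6.50 on the ketogenic ones. The groups overlapped at control replicate 4 and ketogenic replicate 3. The fall was 1.34-fold (log2 fold change -0.43, SE 0.13, adjusted p = 0.0400). Of the fits without 1 array, the call held in 3, those without control replicate 1, control replicate 4 and ketogenic replicate 3, and the adjusted p rose to at most 0.107 in the others. The names of both probe sets end in _x_at, which on this kind of array marks oligonucleotides shared with similar transcripts. The RT1 class I genes are near-identical copies that also differ between rat strains, so the gene behind a signal is uncertain.

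RT1-T24-3, a class I gene of another part of the complex, was the one called higher. Control arrays read 3.83 to 5.58 (median 4.87), and the ketogenic arrays read 6.01, 5.75, 6.06, 5.74 and 5.66, all above every control array. The difference was 2.11-fold (log2 fold change 1.08, SE 0.29, adjusted p = 0.0234). The control mean of 4.77 lay below the testing level, so this probe set was tested only through its ketogenic values. The call was lost with no filter (adjusted p = 0.0557) and without ketogenic replicate 1, 2 or 4 (adjusted p at most 0.0526).

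The remaining class I probe sets were not called. RT1-A3, from the region of the classical class I genes, just missed the threshold at -0.32 (95% interval -0.54 to -0.09, adjusted p = 0.0509). RT1-M3-1, a class I molecule that can present bacterial formyl peptides, was at -0.19 (adjusted p = 0.0903). The 4 probe sets of RT1-S3 gave 0.10, 0.19, 0.04 and -0.61, the last with ketogenic replicate 1 at 3.57. RT1-CE5 was at 0.11 (95% interval -0.28 to 0.49) and RT1-T24-4 at 0.07 (-0.39 to 0.53). The median of the 11 tested heavy chain probe sets was 0.04, and it turned to -0.14 on the values as deposited and to -0.11 centred on the 75th percentile.

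The light chain and the peptide transporter gave no single direction. B2m encodes beta-2 microglobulin, the partner of every class I heavy chain, and its 2 probe sets disagreed. The brighter one ranged from 9.87 to 10.07 on control arrays and read 9.80, 9.78, 10.01, 9.69 and 9.76 on ketogenic arrays. Its log2 fold change was -0.17 (95% interval -0.31 to -0.04, adjusted p = 0.0712). The dimmer one ranged from 7.49 to 7.74 on control arrays and read 7.99, 7.93, 7.95, 7.74 and 7.77 on ketogenic arrays. It was called higher, by 0.26 (SE 0.08, adjusted p = 0.0434), a 1.19-fold difference. That call held without control replicate 1 or 4 and was lost without any other single array (adjusted p at most 0.0957), and the brighter probe set was called lower without ketogenic replicate 3 (-0.22, adjusted p = 0.00991). Tap1, a subunit of the transporter that brings peptides to class I molecules, had a log2 fold change of 0.13 (-0.43 to 0.68), and its other probe set and that of Tap2, its partner, were not tested.

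**Figure D2:**
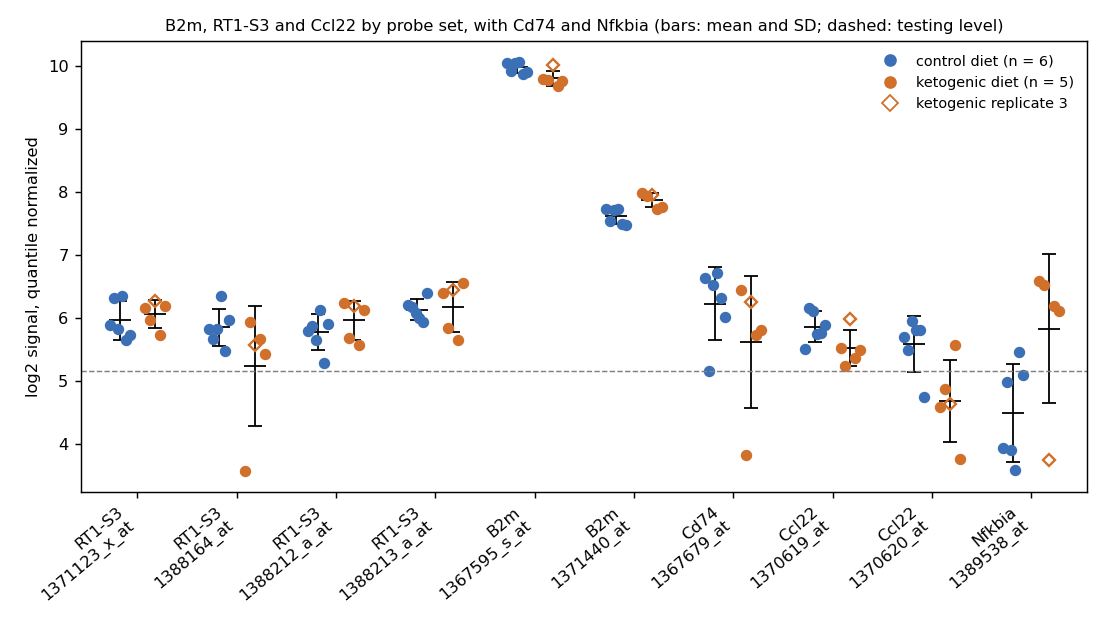
Log2 signals of RT1-S3 (4 probe sets), B2m and Ccl22 (2 each), Cd74 and Nfkbia on each array, with group means and SD. The B2m probe sets differ in opposite directions between the diets, while ketogenic replicate 3 of Nfkbia, at 3.75, lies with the control arrays.

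The promoter of B2m is printed because it holds both an interferon and an NF-kB motif. In each promoter shown, 250 bases before and 50 after the gene's start in RefSeq (assembly GRCr8), capitals mark matches to 3 motifs on either strand. They are an ISRE core (GAAA, any 2 bases, GAAA, the element bound by Irf and Stat complexes), a GAS core (TTCNNNGAA, bound by Stat dimers) and a kB site (GGGA, any base, TTTCC, bound by NF-kB). The 4 promoters printed are those of called genes with a match, chosen after the calls were known.

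B2m, chr3:129549080-129549379, + strand: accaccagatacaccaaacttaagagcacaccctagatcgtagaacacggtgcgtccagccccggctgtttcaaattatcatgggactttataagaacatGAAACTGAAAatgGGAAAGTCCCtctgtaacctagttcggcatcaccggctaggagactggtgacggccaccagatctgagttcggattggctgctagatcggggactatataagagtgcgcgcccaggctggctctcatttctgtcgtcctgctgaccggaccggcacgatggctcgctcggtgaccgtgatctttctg

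The B2m promoter matched the ISRE core at bases -150 to -141 and the kB site at -137 to -128 from the start. Promoters were found for 70 of the 86 member genes, 72 in all where a gene has several starts. An ISRE core was in 14 of the 72, beside 3.92% of all 33469 promoters in the table. A GAS core was in 11 of 72, beside 8.87%, and a kB site in 8 of 72, beside 0.362%. The CCAAT box (CCAAT), a general promoter motif searched in the same way and left in lower case, was in 35 of 72, beside 37.5%. Of 11 promoters of called genes, 3, 2 and 1 held the respective motifs. A match describes the letters only and says nothing of binding in these samples.

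No MHC class II gene passed the threshold. Of 10 probe sets for 7 genes 6 were tested and 0 were called by limma, beside 16.5% of all tested probe sets. An unadjusted p below 0.05 was found for 1 of the 6. That one was RT1-DMb, part of the exchange factor that loads peptides onto class II molecules. It ranged from 7.46 to 7.67 on control arrays and read 7.50, 7.30, 7.45, 7.23 and 7.25 on ketogenic arrays. The groups overlapped through ketogenic replicate 1, and the log2 fold change was -0.21 (SE 0.08, adjusted p = 0.0729). It was called lower with no further scaling (-0.26, adjusted p = 0.0275), with 75th percentile centring (-0.23, adjusted p = 0.0485), and without ketogenic replicate 3 (-0.23, adjusted p = 0.0387). Its partner RT1-DMa was at -0.17 (adjusted p = 0.243).

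Cd74, the invariant chain that guides class II molecules through the cell, varied widely within each diet. Control arrays ranged from 5.17 to 6.72, and ketogenic arrays read 6.45, 3.83, 6.26, 5.74 and 5.81, so that 1 array of each diet lay well below the rest. Its log2 fold change was -0.61 with a 95% interval from -1.46 to 0.23. With the replicate number as a block it was called lower (-0.66, adjusted p = 0.0379), although nothing in the labels pairs the samples. RT1-Ba, the alpha chain of a classical class II molecule, was at -0.66 (-1.43 to 0.12). Its ketogenic mean of 4.81 lay below the testing level, so it was tested only through its control values. RT1-Da and RT1-Db1, chains of the other classical class II molecule, were at 0.02 (-0.24 to 0.27) and 0.17 (-0.22 to 0.56).

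Class II genes, Irf8 and several chemokines come largely from microglia and other myeloid cells, so the markers of these cells are given beside them. Of 13 tested microglia and macrophage markers 2 fell and 0 rose, Aif1 by 0.57 and Csf1r by 0.30 on the log2 scale. That is 15.4% called, beside 16.9% of genes over all. Of the 13 estimates 5 were above 0, among them C1qc at 0.33 and C1qb at 0.31, and the median was -0.06. The 17 markers on the array had a summed signal of 1746 to 2028 on control and 1653 to 2026 on ketogenic arrays. Of these, 0 were at the floor everywhere. In bulk tissue, fewer cells of a type and less RNA per cell cannot be told apart. The part of these cells in the results was not tested.

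Among the Ifit, Ifitm, Oas and Mx genes, which are interferon-stimulated genes apart from Ifitm10, taken in by its name, 2 of the 8 tested fell. The log2 fold changes of all 8, Ifitm10 included, were below 0 in the quantile, deposited and 75th percentile scalings. In the same order, 67.6%, 83.8% and 79.4% of the tested members were below 0. Over all tested probe sets it was 50.8%, 58.5% and 53.6%. Ifit1, whose product binds viral RNA that lacks the cap marks of the host, had control signals of 7.08 to 7.54 (median 7.15). The ketogenic arrays read 6.75, 6.44, 7.30, 6.61 and 6.62. Ketogenic replicate 3 was again within the control range and the other 4 below it. The fall was 1.39-fold (log2 fold change -0.48, SE 0.14, adjusted p = 0.0306). The call held without control replicates 1, 3, 5 or 6 or ketogenic replicate 3 and was lost without any other single array (adjusted p at most 0.0818).

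Ifitm3, a membrane protein that hinders virus entry, ranged from 6.90 to 7.09 (median 7.01) on control arrays and read 6.77, 6.54, 6.71, 6.40 and 6.84 on ketogenic arrays. Every ketogenic value was below every control value. The fall was 1.27-fold (log2 fold change -0.34, SE 0.09, adjusted p = 0.0249), and the call was lost without control replicate 3 or 5 or ketogenic replicate 2 or 4 (adjusted p at most 0.0698). Its promoter is printed because it carries an ISRE core (bases -44 to -35) close to a GAS core (-33 to -25).

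Ifitm3, chr1:205541709-205542008, - strand: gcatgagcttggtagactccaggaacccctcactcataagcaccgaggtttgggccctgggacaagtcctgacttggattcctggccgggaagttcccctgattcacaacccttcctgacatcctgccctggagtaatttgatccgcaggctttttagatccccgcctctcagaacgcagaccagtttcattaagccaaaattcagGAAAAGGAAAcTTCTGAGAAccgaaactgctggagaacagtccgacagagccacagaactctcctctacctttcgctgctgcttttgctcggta

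The other genes of this group were not called. Ifitm1, of the same family, had the largest estimate at -0.71 (-1.33 to -0.08, adjusted p = 0.109), with ketogenic replicate 4 at 4.37. Ifitm2 was at -0.25 and Ifitm10 at -0.34. Ifit3, a partner of Ifit1, was at -0.21 (-0.51 to 0.10), Oas1a, which makes the signal that activates an RNA-cutting enzyme, at -0.25 (-0.51 to 0.02), and the antiviral GTPase Mx1 at -0.14 (-0.41 to 0.13). Both probe sets of Mx2 and that of Gbp2 had means below the testing level.

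Of the interferon regulatory factors, Irf7 fell and Irf9 rose. Irf7, the factor that amplifies type I interferon production, ranged from 6.14 to 6.74 (median 6.48) on control arrays and read 5.55, 6.32, 6.03, 5.99 and 6.23 on ketogenic arrays. The values of ketogenic replicates 2 and 5 lay within the control range. The fall was 1.36-fold (log2 fold change -0.44, SE 0.14, adjusted p = 0.0471), and the call held without control replicate 6 or ketogenic replicates 2 or 3 and was lost without any other single array (adjusted p at most 0.103).

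Irf9 is the DNA-binding part of the complex that interferon receptors activate. It ranged from 5.94 to 6.24 (median 6.20) on control arrays and read 6.62, 6.62, 6.27, 6.31 and 6.59 on ketogenic arrays. No values overlapped, but the gap between the diets was narrow. The rise was 1.25-fold (log2 fold change 0.32, SE 0.10, adjusted p = 0.0468). It was lost on the values as deposited (0.17, adjusted p = 0.284), centred on the 75th percentile (0.20, adjusted p = 0.193) and in each fit without 1 array other than the one without ketogenic replicate 3 (adjusted p at most 0.113).

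The promoters of both genes are printed so that they can be compared, with an ISRE core in Irf7 at bases -69 to -60 and a GAS core in Irf9 at -99 to -91.

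Irf7, chr1:205799974-205800273, - strand: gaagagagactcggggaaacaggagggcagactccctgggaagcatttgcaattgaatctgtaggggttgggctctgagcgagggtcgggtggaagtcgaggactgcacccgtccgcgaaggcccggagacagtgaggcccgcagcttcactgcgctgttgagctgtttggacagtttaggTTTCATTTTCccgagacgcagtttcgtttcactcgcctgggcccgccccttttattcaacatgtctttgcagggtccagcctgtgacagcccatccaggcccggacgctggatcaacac
Irf9, chr15:33065586-33065885, + strand: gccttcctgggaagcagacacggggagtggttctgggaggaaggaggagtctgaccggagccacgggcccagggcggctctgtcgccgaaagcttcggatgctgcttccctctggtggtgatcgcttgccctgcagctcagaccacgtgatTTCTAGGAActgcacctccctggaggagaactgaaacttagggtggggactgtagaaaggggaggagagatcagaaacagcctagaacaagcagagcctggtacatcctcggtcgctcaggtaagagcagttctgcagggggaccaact

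Irf1, a factor induced by interferon gamma, had a log2 fold change of -0.01 (-0.22 to 0.20), Irf3, a factor activated downstream of receptors for foreign nucleic acid, one of -0.15 (-0.47 to 0.16), and Irf8, a factor of myeloid cells, one of -0.10 (-0.38 to 0.18). Both probe sets of Irf2 were below the testing level. Irf2bp1, a partner of Irf2, was at -0.28 (adjusted p = 0.270), with ketogenic replicate 3 at 8.88 above all control arrays and the others at 7.70 to 7.94, below them. Without that array it was called lower (-0.49, adjusted p = 0.00182).

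**Figure D3:**
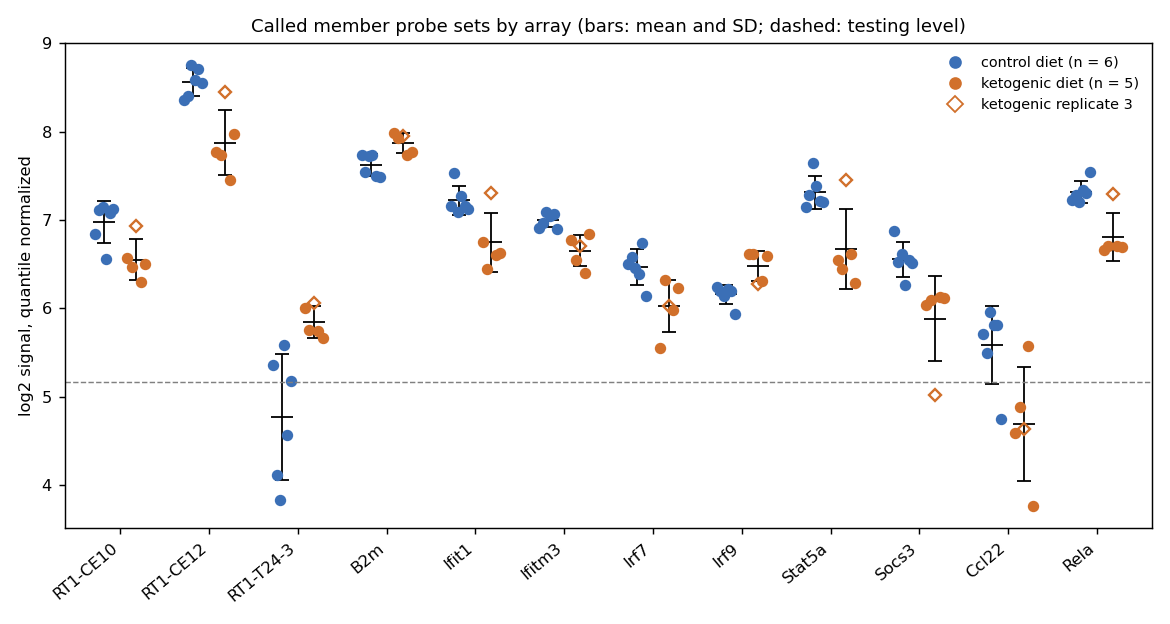
Log2 signals on each of the 11 arrays for the 12 called member probe sets, with mean and SD, ketogenic replicate 3 as an open diamond and the testing level of 5.16 dashed. For RT1-CE10, RT1-CE12, Ifit1, Stat5a and Rela the diamond lies within the range of the control arrays, and for Socs3 it lies below all others at 5.02.

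Of the signal transducers and their inhibitors, Stat5a and Socs3 fell. Stat5a, which acts downstream of growth hormone and prolactin, ranged from 7.15 to 7.65 (median 7.25) on control arrays and read 6.54, 6.45, 7.45, 6.61 and 6.29 on ketogenic arrays. Ketogenic replicate 3 stood within the controls, and the other 4 stood below all of them. The fall was 1.56-fold (log2 fold change -0.64, SE 0.17, adjusted p = 0.0225), and it was lost without any one of the other 4 ketogenic arrays (adjusted p at most 0.0620). Stat5b, its close relative, was at -0.41 (-0.99 to 0.17). Stat3, the main factor behind interleukin 6 receptors, was at -0.07 (-0.28 to 0.14) and -0.06 (-0.26 to 0.14) in its 2 probe sets, and Stat2 at -0.14 (-0.40 to 0.12).

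Socs3, which Stat3 induces and which then blocks receptors of the interleukin 6 family, ranged from 6.26 to 6.88 (median 6.53) on control arrays. It read 6.04, 6.09, 5.02, 6.13 and 6.12 on ketogenic arrays. All 5 were below all controls, and ketogenic replicate 3 was the lowest by far. The fall was 1.60-fold (log2 fold change -0.67, SE 0.18, adjusted p = 0.0264), and 0.46 without ketogenic replicate 3 (adjusted p = 0.0101). It was called in each of the 11 fits that left out 1 array, with adjusted p at most 0.0496. Socs5 was at 0.07 (-0.07 to 0.20), Socs6 at -0.13 (-0.32 to 0.07) and the 2 probe sets of Socs7 at 0.13 and 0.08, and Socs1 and Socs2 were too dim to be tested.

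Chemokines, which draw leukocytes along a gradient, gave 1 call among 16 tested probe sets, beside 16.5% called over all. Ccl22, made by dendritic cells and macrophages, fell in one of its 2 probe sets. That probe set, the dimmer one, ranged from 4.74 to 5.95 (median 5.76) on control arrays and read 4.59, 4.88, 4.64, 5.57 and 3.76 on ketogenic arrays. The groups overlapped through control replicate 6 and ketogenic replicate 4. The fall was 1.87-fold (log2 fold change -0.90, SE 0.29, adjusted p = 0.0464), its ketogenic mean of 4.69 lay below the testing level, and the call held only without control replicate 6 or ketogenic replicate 4 among the fits without 1 array (adjusted p at most 0.103). The other probe set had the same sign at -0.35 (adjusted p = 0.148).

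No other chemokine was called in the quantile scaling. On the values as deposited 4 of the 8 tested CC chemokine probe sets and 1 of the 8 CXC ones were called. Over all 11899 tested probe sets 1736 were then lower and 1076 higher. Centred on the 75th percentile the calls were 3 and 1, beside 1373 lower and 1355 higher over all. Ccl4, a chemokine of activated myeloid cells, was at -0.33 (-0.62 to -0.04, adjusted p = 0.103), Ccl3, its relative, at -0.29 (-0.68 to 0.09), and Ccl5, an interferon-responsive chemokine, at -0.46 (-0.96 to 0.04). The ketogenic mean of Ccl5, 5.02, lay below the testing level. Cxcl9, induced by interferon gamma, was at -0.27 (-0.53 to -0.02, adjusted p = 0.124) and was called lower with no further scaling (-0.46, adjusted p = 0.0144) and with 75th percentile centring (-0.43, adjusted p = 0.0196). Cxcl10, induced by the same signal, was at -0.04 (-0.39 to 0.32). Cxcl3, a neutrophil chemokine, was at -0.95 (adjusted p = 0.187), with ketogenic replicate 4 at 2.32 and a ketogenic mean of 4.70 below the testing level. Cxcl12, a chemokine that neurons, vessels and meninges make at rest, gave -0.06, 0.02 and -0.06 in 3 probe sets, and Cxcl14, another chemokine of resting tissue, 0.09 (-0.08 to 0.26). Probe sets of Ccl2, Ccl6, Ccl17, Ccl28, Cxcl1, Cxcl6, Cxcl13 and Cxcl16 were not tested, and Ccl6 was at the floor of 2.32 on all arrays.

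**Figure D4:**
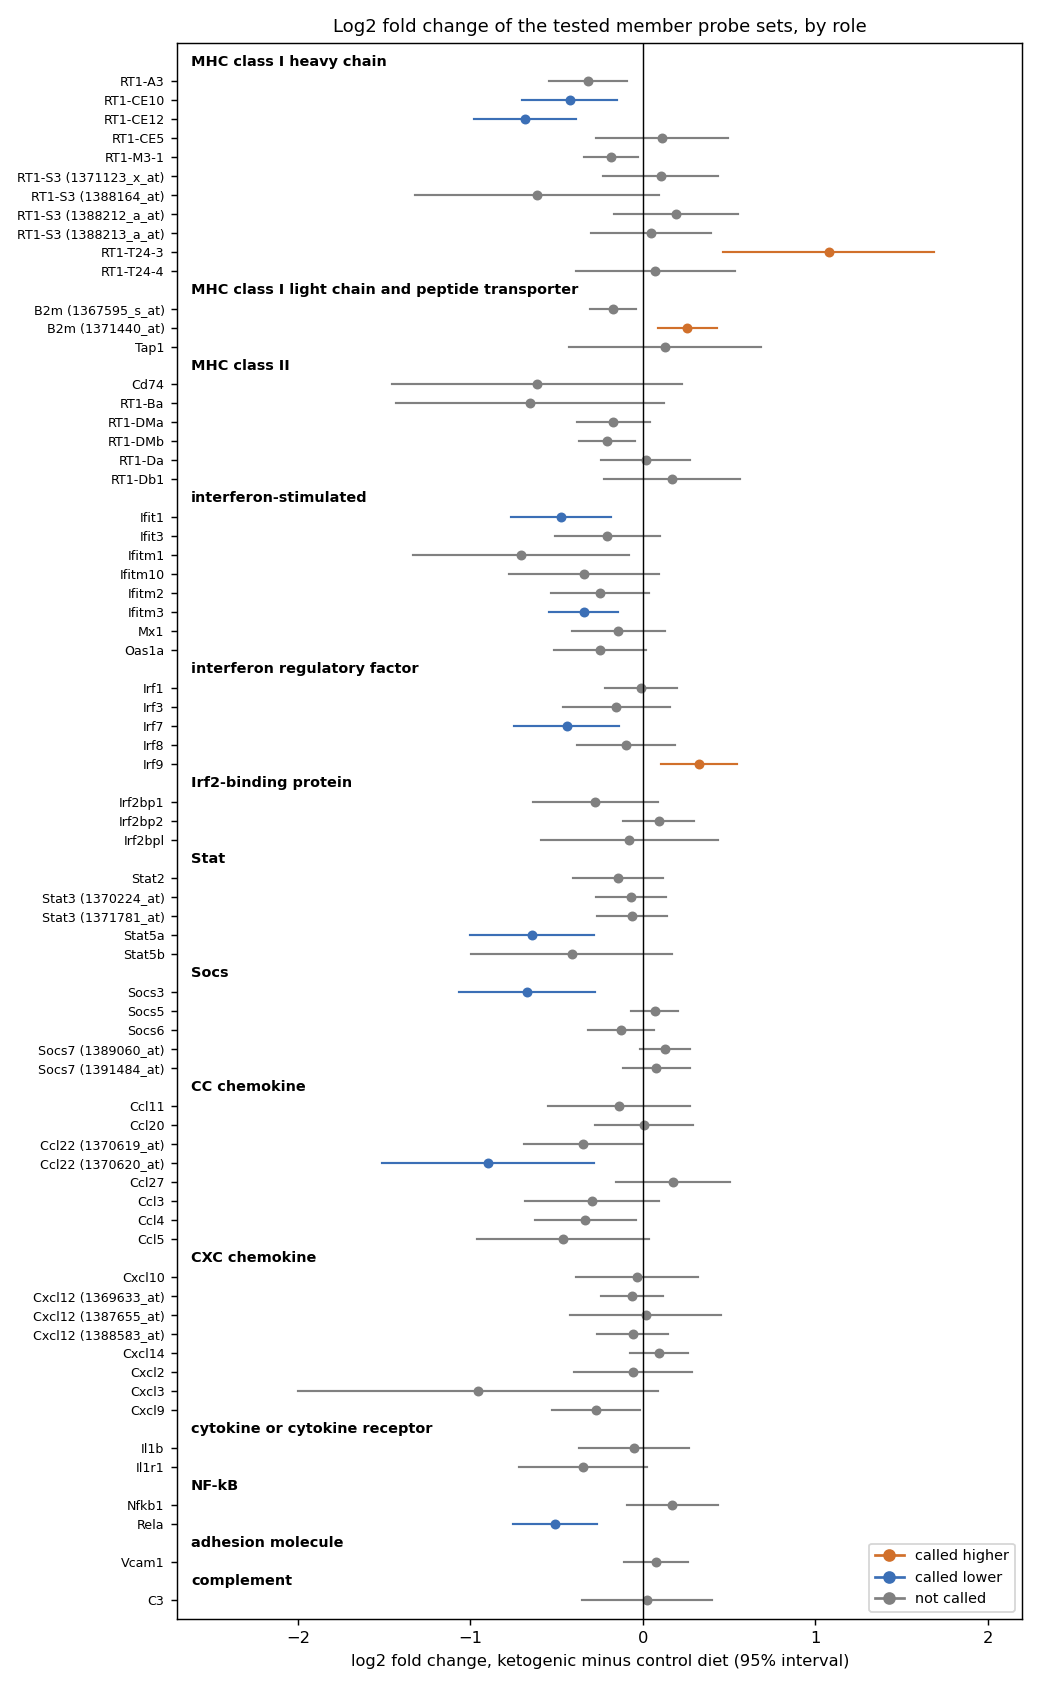
Log2 fold change, ketogenic minus control diet, with its 95% interval for the 68 tested member probe sets in order of role. Orange marks the 3 called higher, blue the 9 called lower and grey the 56 not called, and the 8 tested Ifit, Ifitm, Oas and Mx genes, among them Ifitm10, all lie left of 0. Of the 68 members 67.6% lie left of 0, beside 50.8% of all tested probe sets.

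Most probe sets of the classical inflammatory cytokines and their receptors were too dim to be tested, and the 2 tested were not called. Il1b, interleukin 1 beta, was at -0.05 (-0.37 to 0.27), and its receptor Il1r1 at -0.35 (-0.72 to 0.02). The ketogenic mean of this Il1r1 probe set, 5.01, lay below the testing level. Probe sets of Il6, Il6r, Tnf and Tnfrsf1a had means below 5.16 and were not tested. Il6 ranged from 2.32 to 4.55 on control arrays and from 2.32 to 3.97 on ketogenic arrays, with an array of each diet at the floor. Il6r read 5.85, 5.56, 4.43, 6.18 and 5.54 on ketogenic arrays against 2.78 to 5.19 on control arrays, so that only ketogenic replicate 3 lay within the control range.

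Among the NF-kB genes Rela fell. Rela, the subunit that activates transcription, ranged from 7.20 to 7.55 (median 7.30) on control arrays and read 6.66, 6.70, 7.29, 6.71 and 6.69 on ketogenic arrays. Ketogenic replicate 3 sat at the control level, and the other 4, from 6.66 to 6.71, lay below every control. The fall was 1.42-fold (log2 fold change -0.51, SE 0.11, adjusted p = 0.0121), and it was called in all 11 fits without 1 array. Nfkb1, the partner subunit, was at 0.17 (-0.09 to 0.43).

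Nfkbia, the inhibitor that keeps NF-kB in the cytosol and is itself an NF-kB target, had an overall mean of 5.11, just below the testing level. Control arrays ranged from 3.59 to 5.47 and ketogenic arrays read 6.59, 6.53, 3.75, 6.20 and 6.12. All ketogenic arrays but replicate 3 were above every control array. With no filter on dim probe sets its log2 fold change was 1.34 (SE 0.55, adjusted p = 0.142). In that fit 0 of the 46 dim members were called by limma, beside 8.84% of all probe sets. An unadjusted p below 0.05 was found for 9 of the 46, 5 higher and 4 lower. RT1-N2, a nonclassical class I gene, came closest at 1.46 (adjusted p = 0.0549), with 3 arrays at the floor.

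Adhesion and complement genes showed no call. Vcam1, which holds leukocytes to the vessel wall, was at 0.08 (-0.11 to 0.26), and C3, the central complement protein, at 0.02 (-0.35 to 0.40), with the sign of C3 turned under both other scalings. Icam1, another adhesion molecule, ranged from 3.83 to 3.95 on control and 3.52 to 4.02 on ketogenic arrays, and Serping1, the inhibitor of the first complement enzymes, from 2.80 to 5.83 and 2.32 to 4.95. Neither was tested.

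Other genes of these pathways, taken from lists written with earlier results known, were called in 8.33% to 15.4%, by list. By gene, with the brightest tested probe set, 16.9% of all 8397 genes were called. Of 16 other interferon genes 2 fell and 0 rose. They were Ifnar1, a chain of the type I interferon receptor, at -0.31 (SE 0.10, adjusted p = 0.0449), and Usp18, which removes the ubiquitin-like Isg15 from proteins, at -0.50 (SE 0.15, adjusted p = 0.0343). Of 16 other antigen presentation genes 2 rose and 0 fell. They were Psme1, a subunit of the interferon-inducible proteasome activator, at 0.53 (SE 0.11, adjusted p = 0.00790), and the lysosomal protease Ctss, which cuts Cd74, at 0.39 (SE 0.10, adjusted p = 0.0225).

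Of 26 other cytokine, NF-kB and Jak-Stat genes 3 fell and 1 rose. Tlr4, the receptor for bacterial lipopolysaccharide, was lower by 0.93 (log2 fold change -0.93, adjusted p = 0.0130), with a ketogenic mean of 4.89 below the testing level. Lif, a cytokine that signals through Stat3, was at -0.44 (adjusted p = 0.0317), and Cx3cl1, the neuronal ligand of a microglial receptor, at -0.23 (adjusted p = 0.0281). Pias2, an inhibitor of Stat proteins, was higher by 0.30 (adjusted p = 0.0212). Of 12 other complement genes 1 rose, C1r, a protease of the first complement complex, at 0.72 (SE 0.15, adjusted p = 0.00922), with a control mean of 4.94 below the testing level. The median log2 fold changes of these lists were -0.19, 0.01, -0.04 and -0.04 in the order given.

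Markers of other cells were examined beside the 16.9% of genes called over all. Red blood cell markers had a summed signal of 1318 to 1789 on control and 491 to 590 on ketogenic arrays, with 4 of 5 lower and 1 higher. Markers of blood leukocytes had 5 tested genes, of which 1 fell (Lck, at -0.46), and sums of 512 to 605 and 430 to 566. Endothelial markers had 1 of 8 lower (sums 1267 to 1381 and 1099 to 1333). Meninges and fibroblast markers had 2 of 11 lower (1648 to 4366 and 1211 to 2850), choroid plexus markers 3 of 7 lower (792 to 2283 and 590 to 1159), and astrocyte markers 2 of 10 lower (11714 to 12540 and 10970 to 12573), with 0 higher in each. Among the markers called lower, Cldn2 (choroid plexus) and Alas2 (red blood cells) had ketogenic means of 4.98 and 4.94, below the testing level. Both were tested only through their control values. No marker was at the floor on all arrays, and all 11 hippocampal neuron markers on the array were above the testing level. Of these 1 rose, Camk2a, a kinase of excitatory synapses, at 1.34 (adjusted p = 0.00395) with no overlap between the diets, and 0 fell. The neuron sums were 7658 to 8529 on control and 8306 to 9722 on ketogenic arrays. They include Camk2a, whose mean log2 signal was 9.31 on control and 10.65 on ketogenic arrays. Of the 11 neuron estimates only 4 were above 0, and their median was -0.01. The part of all these cells in the results for interferon, chemokine and MHC genes was not tested.

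Whole-array measures moved with the diet too. The median deposited signal was 89.2 to 94.2 on control and 79.9 to 87.9 on ketogenic arrays, with no overlap, and the quantile scaling removes this difference. The log2 ratio of 3 prime to 5 prime control probe sets, a measure of RNA integrity that is larger in degraded RNA, was -0.07 to 0.15 on control and 0.13 to 0.34 on ketogenic arrays for Gapdh. For actin it was 0.49 to 0.75 and 0.75 to 0.99. With both ratios as covariates, 0 of the 68 members were called by limma (5 had an unadjusted p below 0.05, all lower), beside 0.0504% of all tested probe sets. The estimates then were -1.25 for Socs3, -0.38 for RT1-CE12, -0.31 for Ifitm3, -0.29 for Rela, -0.29 for Ccl22, -0.26 for RT1-CE10, -0.19 for Irf7 and -0.08 for Stat5a. They were 0.69 for RT1-T24-3, 0.20 for B2m and 0.19 for Irf9, and 0.01 for Ifit1, whose sign turned. The ranges of the Gapdh ratio overlapped between the diets and those of the actin ratio did not, so RNA quality and diet cannot be told apart by these arrays.

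Ketogenic replicate 3 stood apart from the other ketogenic arrays in several of the called members. In 6 of the 12 calls, RT1-CE10, RT1-CE12, Ifit1, Stat5a, Rela and Irf9, it was the ketogenic array nearest to the controls, and in 2, Socs3 and RT1-T24-3, the farthest. Its Gapdh ratio of 0.13 lay within the control range of -0.07 to 0.15, while its actin ratio of 0.77 lay above the control range. Its median deposited signal of 87.9 was the highest of the ketogenic arrays. The part of RNA quality in its values was not tested. Over all tested probe sets the mean correlation of this array was 0.961 with control arrays and 0.952 with ketogenic arrays. Without this array 16 members were called, or 23.5%, beside 26.6% of all tested probe sets. Of these 16, 14 were lower and 2 higher, 10 were among the 12 calls made with all arrays, and 6 were not: the brighter probe sets of B2m and Ccl22, and Ifitm1, Irf2bp1, RT1-A3 and RT1-DMb.

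The counts also moved when other arrays were left out. The 9 members called lower became 5 without control replicate 2, 3 or 5 or ketogenic replicate 1 or 2, and 4 without ketogenic replicate 4 or 5. The 3 called higher became 0 without ketogenic replicate 1, 2 or 4, and 1 without ketogenic replicate 5 or control replicate 2, 3, 5 or 6.

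Several calls also depended on the filter, the variance model or the scaling. With no filter on dim probe sets the calls of RT1-CE10, RT1-T24-3, Ifit1, Irf7, Irf9, Stat5a, Socs3 and Ccl22 were lost, with adjusted p from 0.0528 to 0.0921. With no trend of variance with signal, those of RT1-CE10, B2m, Irf7 and Ccl22 were lost (adjusted p 0.0510 to 0.0543). With the mean signal of the spike-in controls as a covariate, those of RT1-CE10, B2m, Ifit1, Ifitm3, Irf9, Stat5a and Ccl22 were lost (adjusted p 0.0511 to 0.104). B2m was also lost on the values as deposited (adjusted p = 0.0511) and with array weights (adjusted p = 0.0515).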

How the data were processed

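Total RNA of 11 rat hippocampus samples was measured on 1-colour oligonucleotide arrays. The deposited values are linear intensities, 1 per probe set and array. How the authors made them from scanner images is not given in the sources used here. Array medians as deposited were 89.2 to 94.2 on the control and 79.9 to 87.9 on the ketogenic diet, and their log2 values spanned 0.238, above a limit of 0.1, so log2 values were quantile normalized. Values below the 5th percentile (a signal of 4.99) were set to it. The 57 control probe sets and the 25% of the others with the lowest mean were not tested. The difference between diets was estimated by limma 3.58.1, run under R 4.3.3 (eBayes with trend, two-sided, Benjamini-Hochberg over 11899 probe sets), and a probe set with adjusted p below 0.05 is called. Fold changes are on this floored log2 scale. The number of arrays limits the precision. Members and lists were chosen with earlier results of these data known. Named members are all called ones, those with the smallest p and the highest mean in each role, and a fixed set of further genes; 1 named item is not reported here. Of the other pathway genes the called ones are named; further genes were named after their values were seen. Pathway and marker genes use symbols updated through gene identifiers with a RefSeq table, and promoters are from RefSeq (GRCr8). The fit was tested on simulated data. Alternatives were other scalings, floors, filters, variance models, array weights, a replicate block, covariates, a threshold of 0.1 and leaving out each array.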

Additional observations from a re-analysis of the deposited data

Results flagged for a closer look

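Among 74 groups of values of the named members, 9 held 1 array far from the rest of its diet. A rate of 1 in 20 would give 3.7, but that takes the groups as independent. They share the same 11 arrays, and some members were named because they were called, so this rate cannot judge the 9. Ketogenic replicate 3 was the distant array in 5 of the 9 groups. It lay above the other ketogenic arrays for Rela (7.29, others 6.66 to 6.71), Stat5a (7.45, others 6.29 to 6.61) and Irf2bp1 (8.88, others 7.70 to 7.94). It lay below them for Socs3 (5.02, others 6.04 to 6.13) and Nfkbia (3.75, others 6.12 to 6.59). Ketogenic replicate 2 was low for Cd74 (3.83, others 5.74 to 6.45). Control replicate 6 was high for Irf1 (7.24, others 6.77 to 6.86) and low for Irf9 (5.94, others 6.14 to 6.24). Control replicate 5 was at the floor for Il6 (2.32, others 3.81 to 4.55). The GEO title of ketogenic replicate 3 ends differently from the other titles, and the labels do not say what that ending means.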

How the results depend on the processing

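Over all probe sets 1961 calls were made, and 3137 with array weights, 767 with a covariate for the spike-in level, 6 with covariates for the 3 prime to 5 prime ratios, and 3071 at an adjusted p of 0.1. Leaving out 1 array gave 806 to 3166. The 3 members called higher became 1 on the values as deposited, with no filter, with the 50% dimmest not tested, with the replicate block and with the spike-in covariate, and 0 with the ratio covariates. Leaving out 1 array gave 0 to 2. The 9 members called lower became 18 on the values as deposited, 15 centred on the 75th percentile, 15 with array weights, 3 with no filter, 5 with the spike-in covariate and 0 with the ratio covariates, and 4 to 14 without 1 array. Across all alternatives the called members kept their sign, except Ifit1 with the ratio covariates (0.00997). RT1-CE12, Socs3 and Rela were called in all 11 fits without 1 array. With the replicate block the calls of the dimmer B2m probe set, Ifit1 and Irf9 were lost and Cd74 was called. The labels do not say that the numbers pair the samples. Deviations of same-numbered arrays correlated at 0.00888 to 0.0771, and 2 of 5 pairs correlated best with their own number. So few and weak correlations cannot settle whether same-numbered samples belong together. A sign change between values that both missed the threshold was not counted as a reversal. The causes of these changes were not tested. Signals near the floor limit what can be said of Il6, the dimmer Tnf probe set and other dim members.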

Other observations

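Probe sets shared between several genes were not members. Of 4 shared between RT1 class I genes, the one listed for RT1-M6-1 and RT1-M4 was lower on the ketogenic diet by 0.53 on the log2 scale (log2 fold change -0.53, SE 0.16, adjusted p = 0.0354), from 5.98 ± 0.19 (SD, n = 6) to 5.45 ± 0.32 (SD, n = 5). The one listed for RT1-A, RT1-CE16 and RT1-A1 was at -0.59 (adjusted p = 0.144), the one for RT1-A3 and RT1-A2 at -0.10 (adjusted p = 0.751), and the last was too dim to be tested. A probe set listed for both C4a and C4b, complement genes, was at 0.71 (adjusted p = 0.268), with a control array at 2.72.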
